A study of Mus musculus with 9 samples.

Results

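The 8 genes described here code for the matrix of cartilage and for the proteins that make and steer its cells: Sox9, Ihh, Acan, Hapln1, Matn3, Comp, Chad and Prg4. They were chosen by symbol from the 22183 genes of the deposited table, and all 8 were found there and passed the filter on low counts, as did 14211 genes in all. Messenger RNA of mouse tibiae was sequenced in 3 groups with 3 libraries each. Mice of the Ti+I-OG group were given titanium particles and, into the tibia, the I-OG hydrogel, a gel made from natural polymers and loaded with irisin. The Ti group had received titanium particles alone, and the naive group had received no treatment. The design text places the analysis at 5 weeks of treatment with the hydrogel and gives no time for the other groups, and the labels give no strain, age or sex. Naive tibiae are labelled as untreated, so the particles and the procedure that delivered them cannot be told apart, and no group analysed here received a hydrogel without irisin. Whether the 3 libraries of a group stand for 3 animals is not stated, so p-values measure only the spread between these libraries, which may be technical.

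Cartilage is built by chondrocytes, which in a long bone form the growth plate and cover the joint ends. SOX9, a transcription factor, directs the chondrocyte programme in mouse, and Indian hedgehog, secreted by cells that are leaving proliferation in the growth plate, paces their maturation together with parathyroid hormone-related protein. Aggrecan holds water in the tissue through its chondroitin sulphate chains, and many aggrecan molecules sit on a strand of hyaluronan, each locked in place by link protein (Hapln1). Matrilin 3 and cartilage oligomeric matrix protein (Comp) are adaptors between collagen fibrils and other matrix molecules, and chondroadherin (Chad) is a leucine-rich protein to which chondrocytes adhere. Lubricin (Prg4) lubricates the joint surface and is made by superficial chondrocytes and by synovial cells. Comp is also made in tendon.

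The tissue label and the presence of chondrocytes were checked against fixed markers. Of 9 chondrocyte markers, 8 were measured above the filter, and Col2a1, the main collagen of cartilage, had 82.4 to 259 CPM (counts scaled to a common library size by TMM) in Ti+I-OG libraries, 382 to 470.1 CPM in Ti libraries and 72.6 to 174 CPM in naive libraries. Matn1 was the exception, with at most 12 counts in a library and none in Ti+I-OG replicate 3 and naive replicate 3. All bone markers, among them Sp7 and Col1a1, and all osteoclast markers were measured too. Library totals ran from 16256081 to 24766502 counts, so that the 3 counts taken as a floor equal 0.114 to 0.206 CPM.

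Ti+I-OG replicate 3, naive replicate 3 and naive replicate 1 stood apart from their groups, and the results below are given without them where that matters. Ti replicate 3 differed too, with 2323 CPM over 11 muscle markers, against 4918 and 8195 CPM in Ti replicates 1 and 2. Without it 1999 genes were called in Ti against naive, against 914 with all libraries. The same 3 of the 8 genes, Sox9, Prg4 and Comp, passed in both fits. Ti+I-OG replicate 3 held little RNA of several cartilage genes: 7 of the 8 genes were at least 2-fold below the mean of Ti+I-OG replicates 1 and 2, as were 183 of all 14211 genes tested, or 1.29%. Naive replicate 3 was low in the sum of bone genes, with 835 CPM over 10 osteoblast and osteocyte markers, against 1775 and 1801 CPM in naive replicates 1 and 2. Not all of these markers were low there. Dmp1 had 1200 counts, against 1268 and 1062 in naive replicates 1 and 2, and Sost had 195, against 168 and 241. Naive replicate 3 was also the lowest naive library in summed erythroid markers (29798 CPM, against 60056 and 96595 CPM). So it was in B lineage (127, against 253 and 375 CPM) and marrow adipocyte markers (131, against 221 and 297 CPM). Its osteoclast sum was the highest of the naive libraries, at 2033 CPM against 1745 and 1274 CPM. Naive replicate 1 was high in growth plate genes, with Col10a1 at 123.3 CPM, against 15.1 and 12.7 CPM in naive replicates 2 and 3, and with a sum of 469 CPM over 9 chondrocyte markers, against 202 and 169 CPM. Of the naive libraries it had the highest Matn3, Hapln1 and Ihh, the lowest Acan and Chad, and the middle value of Sox9, Comp and Prg4. In bulk RNA of a bone, fewer cells of a type and less RNA per cell cannot be told apart.

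RefSeq promoters were at hand for 5 of the 8 genes, Acan, Hapln1, Matn3, Chad and Ihh. They are the 250 bases before and 50 after the annotated start, on build GRCm38.p6, and the 4 of matrix genes are shown, since in each of these genes every Ti library was above every naive library. Capitals mark 4 motifs searched on both strands: TATAAA for the core of the box named after it, ACAAT for a core bound by SOX proteins, ACAAAG for another form of that core, and GGGCGG for the so-called GC box. A GC box on the other strand reads CCGCCC. Acan lies at chr7:79052976-79053275, Hapln1 at chr13:89540386-89540685, Matn3 at chr12:8947679-8947978 and Chad at chr11:94564797-94565096, each on the plus strand.
Acan: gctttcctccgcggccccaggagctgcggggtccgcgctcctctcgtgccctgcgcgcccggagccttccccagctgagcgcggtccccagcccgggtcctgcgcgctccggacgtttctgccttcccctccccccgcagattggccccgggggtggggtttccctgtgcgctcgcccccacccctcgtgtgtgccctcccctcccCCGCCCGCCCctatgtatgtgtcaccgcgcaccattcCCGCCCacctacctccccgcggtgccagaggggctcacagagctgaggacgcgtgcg
Hapln1: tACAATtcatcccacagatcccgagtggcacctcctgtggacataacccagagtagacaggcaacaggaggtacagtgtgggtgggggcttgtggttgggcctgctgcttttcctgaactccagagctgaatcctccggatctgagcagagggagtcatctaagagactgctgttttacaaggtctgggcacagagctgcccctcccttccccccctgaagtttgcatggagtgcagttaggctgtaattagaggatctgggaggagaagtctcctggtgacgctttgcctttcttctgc
Matn3: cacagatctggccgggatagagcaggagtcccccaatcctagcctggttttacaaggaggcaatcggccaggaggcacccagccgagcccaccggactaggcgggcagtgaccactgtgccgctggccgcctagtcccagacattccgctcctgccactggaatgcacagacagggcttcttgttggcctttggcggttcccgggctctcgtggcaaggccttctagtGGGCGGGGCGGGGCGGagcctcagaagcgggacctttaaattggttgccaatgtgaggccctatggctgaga
Chad: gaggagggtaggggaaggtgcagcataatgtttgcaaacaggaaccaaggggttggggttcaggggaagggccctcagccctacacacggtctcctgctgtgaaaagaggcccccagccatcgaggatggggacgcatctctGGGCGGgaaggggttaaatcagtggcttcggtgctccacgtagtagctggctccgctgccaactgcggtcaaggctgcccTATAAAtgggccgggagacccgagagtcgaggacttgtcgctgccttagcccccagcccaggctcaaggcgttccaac
The Acan promoter held 3 GC boxes, of which a pair overlaps, and was 74.0% G and C, against a median of 52.7% over 32851 promoters. Matn3 held 3 GC boxes in a row just before its start, and the Chad promoter had the box core at position −28 and 1 GC box. Hapln1 had an ACAAT at position −249 and no other match. TATAAA occurs in 13.6% of all promoters of this length, ACAAT in 31.0%, ACAAAG in 18.7% and GGGCGG in 35.7%, so a match in 1 promoter is common. These matches are letters, and none was tested as a binding site.

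Per kilobase of transcript, the 8 genes spanned a wide range of levels. Lubricin was highest in both particle groups, with a mean of 62.3 ± 9.63 FPKM (fragments per kilobase and library size; SD, n = 3) in Ti+I-OG tibiae, 104 ± 35.3 FPKM in Ti tibiae and 20.4 ± 9.04 FPKM in naive tibiae. Chad and Comp came next in Ti tibiae, at 76.5 ± 11.96 and 48.7 ± 13.3 FPKM, and Chad lay within the spread of Prg4. Hapln1 with 13.9 ± 4.45 FPKM, Acan with 12.5 ± 2.33 FPKM and Matn3 with 7.28 ± 1.89 FPKM formed a lower tier in Ti tibiae. The regulators were lowest there, Sox9 at 1.63 ± 0.504 FPKM and Ihh at 1.36 ± 0.642 FPKM. Hapln1 and Acan lay within each other's spread in every group, as did Sox9 and Ihh. Chad was at 40.3 ± 19.99 FPKM in Ti+I-OG tibiae and at 39.1 ± 17.6 FPKM in naive tibiae, where it had the highest mean of the 8 genes, with a spread that overlapped that of Prg4.

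Sox9, the chondrocyte transcription factor, had 2.48, 4.60 and 1.25 CPM in the Ti+I-OG libraries, 6.94, 8.58 and 4.46 CPM in the Ti libraries, and 1.78, 2.24 and 1.59 CPM in the naive libraries. All Ti libraries were above all naive libraries, while Ti+I-OG overlapped both groups. Ihh, the hedgehog ligand of the growth plate, had 2.38, 3.02 and 0.793 CPM in Ti+I-OG tibiae, 2.69, 5.11 and 2.16 CPM in Ti tibiae, and 2.20, 1.12 and 0.503 CPM in naive tibiae. Its groups overlapped in all comparisons, and it rested on only 12 to 124 counts a library.

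Acan had 32.2, 35.4 and 6.12 CPM in Ti+I-OG tibiae, 59.5, 65.7 and 46.4 CPM in Ti tibiae, and 21.7, 24.9 and 41.2 CPM in naive tibiae. The Ti libraries were the highest of all, above every naive and every Ti+I-OG library. Hapln1, whose protein ties aggrecan to hyaluronan, had 50.8, 38.9 and 2.32 CPM in Ti+I-OG tibiae, 89.8, 96.6 and 49.8 CPM in Ti tibiae, and 36.1, 23.8 and 17.3 CPM in naive tibiae. Ti was above naive throughout, and Ti+I-OG replicate 1 was just above Ti replicate 3.

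Matn3 had 13.2, 9.62 and 0.340 CPM in Ti+I-OG tibiae, 25.7, 24.2 and 15.2 CPM in Ti tibiae, and 9.87, 2.19 and 4.15 CPM in naive tibiae, and Ti was again above both other groups. Comp had 62.6, 83.3 and 33.7 CPM in Ti+I-OG tibiae, 91.6, 135 and 84.4 CPM in Ti tibiae, and 22.8, 29.5 and 21.9 CPM in naive tibiae. For Comp the groups did not overlap at all, with Ti+I-OG between Ti and naive. Chad had 82.1, 108 and 31.8 CPM in Ti+I-OG tibiae, 114, 150.3 and 118 CPM in Ti tibiae, and 32.2, 67.3 and 84.9 CPM in naive tibiae. The Ti libraries were the highest, and Ti+I-OG and naive covered nearly the same range.

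Prg4 had 100.5, 141 and 103 CPM in Ti+I-OG tibiae, 195, 236 and 119 CPM in Ti tibiae, and 34.1, 52.1 and 33.1 CPM in naive tibiae. Both particle groups were above all naive libraries, and they overlapped each other through Ti replicate 3. Prg4 shares 204 exonic bases, 4.8% of its exons in the GENCODE annotation, with Tpr, a nuclear pore gene on the opposite strand, and the library kit does not mark strand. Its values are therefore uncertain to that extent. Tpr itself had a log2 fold change of −0.31 in Ti against naive (edgeR adjusted p = 0.347).

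**Figure D1:**
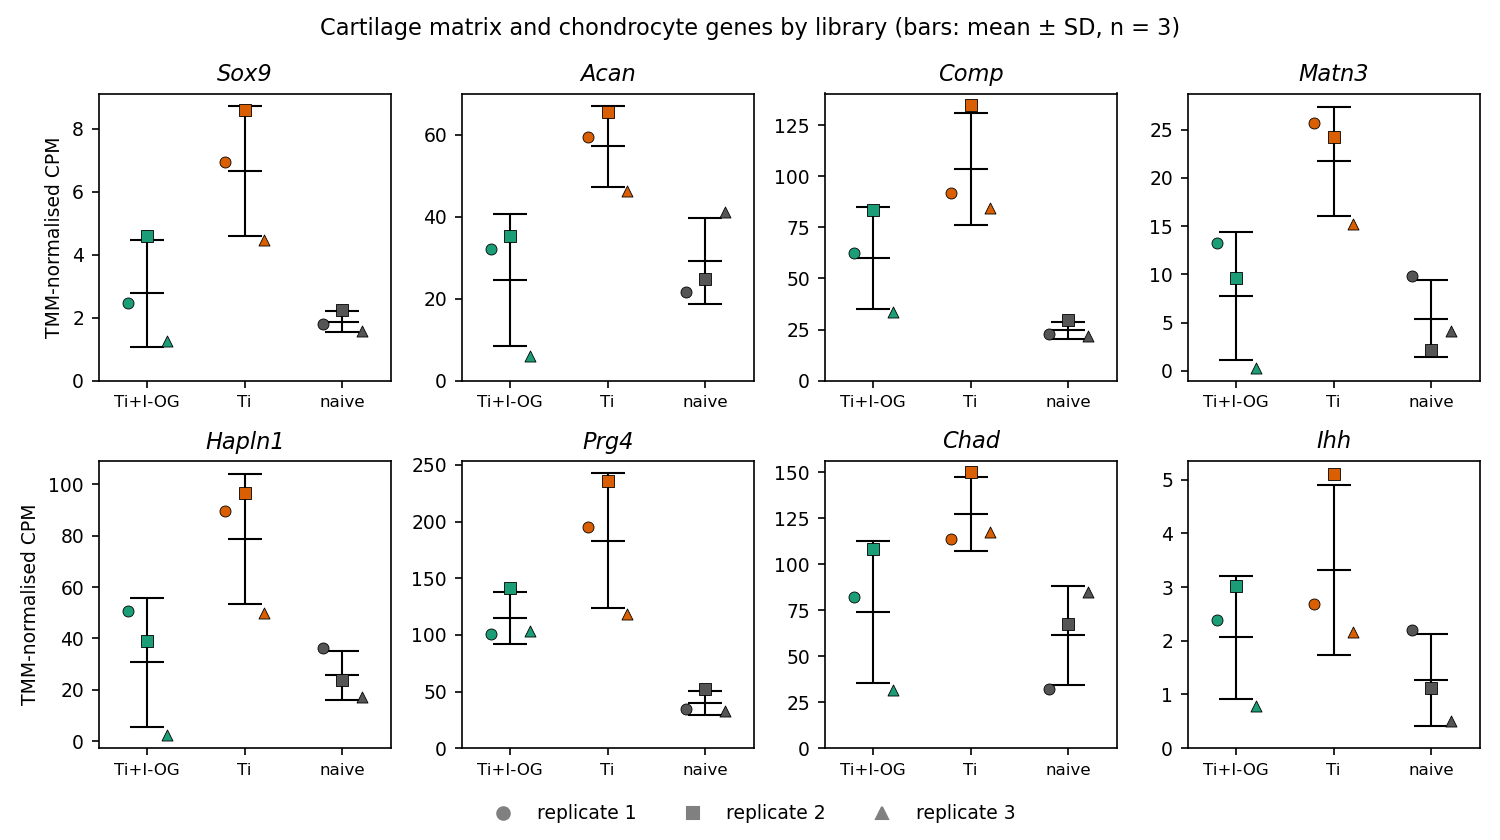
Level of each of the 8 genes in each library, in TMM-scaled CPM, with 1 panel a gene and the groups Ti+I-OG, Ti and naive from left to right. Points are libraries, with a shape for each replicate, and bars are the mean ± SD (n = 3). The Ti points are above the naive points in 7 of the 8 panels, and Ti+I-OG replicate 3 lies far below its group in Matn3 and Hapln1.

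The first comparison asked how tibiae with titanium particles differed from untreated ones. All 8 genes had positive fold changes in Ti against naive tibiae, as did 50.7% of all genes tested. Lubricin, Comp and Sox9 rose 4.61-fold, 4.19-fold and 3.56-fold, and the other 5 did not pass the test. That is 3 of 8 genes called higher, where 4.05% of all genes tested were called higher in this comparison. The median log2 fold change of the 8 genes was 1.72, against 0.01 over all genes tested. In 7 of 8 genes every Ti library exceeded every naive library, which held for 14.3% of all genes tested. Before adjustment p was under 0.05 for 26.9% of all genes tested.

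Prg4 averaged 183 ± 59.5 CPM in Ti tibiae and 39.8 ± 10.7 CPM in naive tibiae (SD, n = 3 each), a log2 fold change of 2.21 ± 0.264 (SE; edgeR adjusted p = 0.00213). Comp averaged 104 ± 27.3 CPM in Ti tibiae and 24.7 ± 4.13 CPM in naive tibiae, a log2 fold change of 2.07 ± 0.293 (edgeR adjusted p = 0.00497). Both passed in all 9 fits that left out 1 library. Sox9 averaged 6.66 ± 2.07 CPM in Ti tibiae and 1.87 ± 0.334 CPM in naive tibiae, a log2 fold change of 1.83 ± 0.412 (edgeR adjusted p = 0.0268). The Sox9 call was lost without Ti replicate 1 (adjusted p = 0.103), Ti replicate 2 (0.118), naive replicate 1 (0.0734) or naive replicate 3 (0.0967).

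The other 5 genes had positive fold changes that did not pass. Matn3 had a log2 fold change of 2.0 ± 0.765 (edgeR adjusted p = 0.127) and Hapln1 one of 1.61 ± 0.687 (adjusted p = 0.158). Ihh stood at 1.37 ± 0.570 (adjusted p = 0.151), Chad at 1.05 ± 0.399 (adjusted p = 0.125) and Acan at 0.97 ± 0.464 (adjusted p = 0.204). Leaving out 1 library moved Matn3 between 1.63 and 2.77, Hapln1 between 1.37 and 1.94, Ihh between 0.90 and 2.04, Chad between 0.74 and 1.33 and Acan between 0.79 and 1.28. The highest values of Matn3, Hapln1 and Ihh and the lowest of Chad and Acan were those without naive replicate 1, where Prg4 (2.11) and Comp (2.01) passed and Sox9 stood at 1.80. All 9 libraries share 1 estimate of the spread in this fit, and Ti+I-OG replicate 3 enters it although it is in neither group. Without that library, Acan (adjusted p = 0.0362), Matn3 (0.0303) and Hapln1 (0.0176) passed as well, 6 genes in all, with log2 fold changes of 0.96, 1.99 and 1.60. A fit on the Ti and naive groups alone, which also omits that library, called 4 genes: Sox9, Prg4, Hapln1 and Comp. Acan and Matn3 did not pass in it. Without that library and naive replicate 3 the 6 genes that passed were Sox9, Prg4, Comp, Acan, Hapln1 and Chad.

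The second comparison set the hydrogel group against particles alone. All 8 genes had negative fold changes in Ti+I-OG against Ti tibiae, as did 50.4% of all genes tested, and none passed the test in edgeR, DESeq2, limma-voom or limma-trend. Only 6 of 14211 genes were called at all, or 0.0422%, every one higher in Ti+I-OG. The median of the 8 genes was −1.01 on the log2 scale, against 0.00 over all genes tested. For 4 genes, Sox9, Acan, Comp and Prg4, the p before adjustment was under 0.05, as it was for 7.84% of all genes. In Acan, Comp, Matn3 and Chad every Ti+I-OG library was below every Ti library, which held for 6.71% of all genes tested.

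Matn3 had the most negative value, with a mean of 7.73 ± 6.65 CPM in Ti+I-OG tibiae and 21.7 ± 5.67 CPM in Ti tibiae, a log2 fold change of −1.49 ± 0.756 (edgeR adjusted p = 0.652). Hapln1 was at −1.36 ± 0.684 (adjusted p = 0.651), Sox9 at −1.28 ± 0.407 (adjusted p = 0.628) and Acan at −1.22 ± 0.470 (adjusted p = 0.628). Comp at −0.79 ± 0.283, Chad at −0.78 ± 0.397, Ihh at −0.70 ± 0.563 and Prg4 at −0.67 ± 0.253 were nearer to 0 (adjusted p = 0.628, 0.652, 0.757 and 0.628 in this order). Leaving out 1 library moved these values. Without Ti+I-OG replicate 3 all 8 values were still negative, at −0.93 for Sox9 and Matn3, −0.82 for Hapln1, −0.76 for Acan, −0.60 for Prg4, −0.51 for Comp, −0.42 for Chad and −0.31 for Ihh, and none passed. Prg4 (−0.45) and Ihh (−0.24) were nearest to 0 without Ti replicate 2. Matn3 stood at −2.15 without Ti+I-OG replicate 1.

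The third comparison set the hydrogel group against untreated tibiae. Lubricin and Comp rose, 2.89-fold and 2.42-fold, and the other 6 genes did not pass; 3.84% of all genes tested were called higher here. Every Ti+I-OG library exceeded every naive library for these 2 of 8 genes, and for 18.7% of all genes tested. Prg4 averaged 115 ± 22.9 CPM in Ti+I-OG tibiae and 39.8 ± 10.7 CPM in naive tibiae, a log2 fold change of 1.53 ± 0.259 (edgeR adjusted p = 0.0125). The Prg4 call was lost without Ti+I-OG replicate 2 (adjusted p = 0.0709). Comp averaged 59.9 ± 24.9 CPM in Ti+I-OG tibiae and 24.7 ± 4.13 CPM in naive tibiae, a log2 fold change of 1.28 ± 0.288 (edgeR adjusted p = 0.0291). The Comp call was lost without Ti+I-OG replicate 1 (adjusted p = 0.0782), Ti+I-OG replicate 2 (0.133), Ti replicate 1 (0.0503), naive replicate 1 (0.0728) or naive replicate 3 (0.1003).

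The other 6 genes lay closer to naive levels, with log2 fold changes of 0.67 for Ihh, 0.55 for Sox9, 0.51 for Matn3, 0.27 for Chad, 0.25 for Hapln1 and −0.25 for Acan. Their SEs ran from 0.397 to 0.767, and none of the 6 had a p under 0.05 before adjustment, which does not show that they equalled naive levels. Over all genes tested, 29.8% had such a p. Without Ti+I-OG replicate 3 Acan stood at 0.20 in place of −0.25. Without naive replicate 1 Ihh stood at 1.34, Matn3 at 1.28, Hapln1 at 0.58, Sox9 at 0.52, Chad at −0.04 and Acan at −0.43, and Prg4 (1.43) was the one of the 8 genes that passed. The median of the 8 genes was 0.53, against 0.03 over all genes tested. Over all genes, 545 were called higher and 629 lower, 1174 in all, and 657 higher and 426 lower with upper-quartile scaling. Deviations of same-numbered libraries of these groups from their group means correlated at 0.115 to 0.273. A fit with the replicate number as a block called 3450 genes, with the same 2 of the 8 genes among them. The Ti and naive libraries serve in more than 1 comparison, so the 3 sets of values are not independent.

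**Figure D2:**
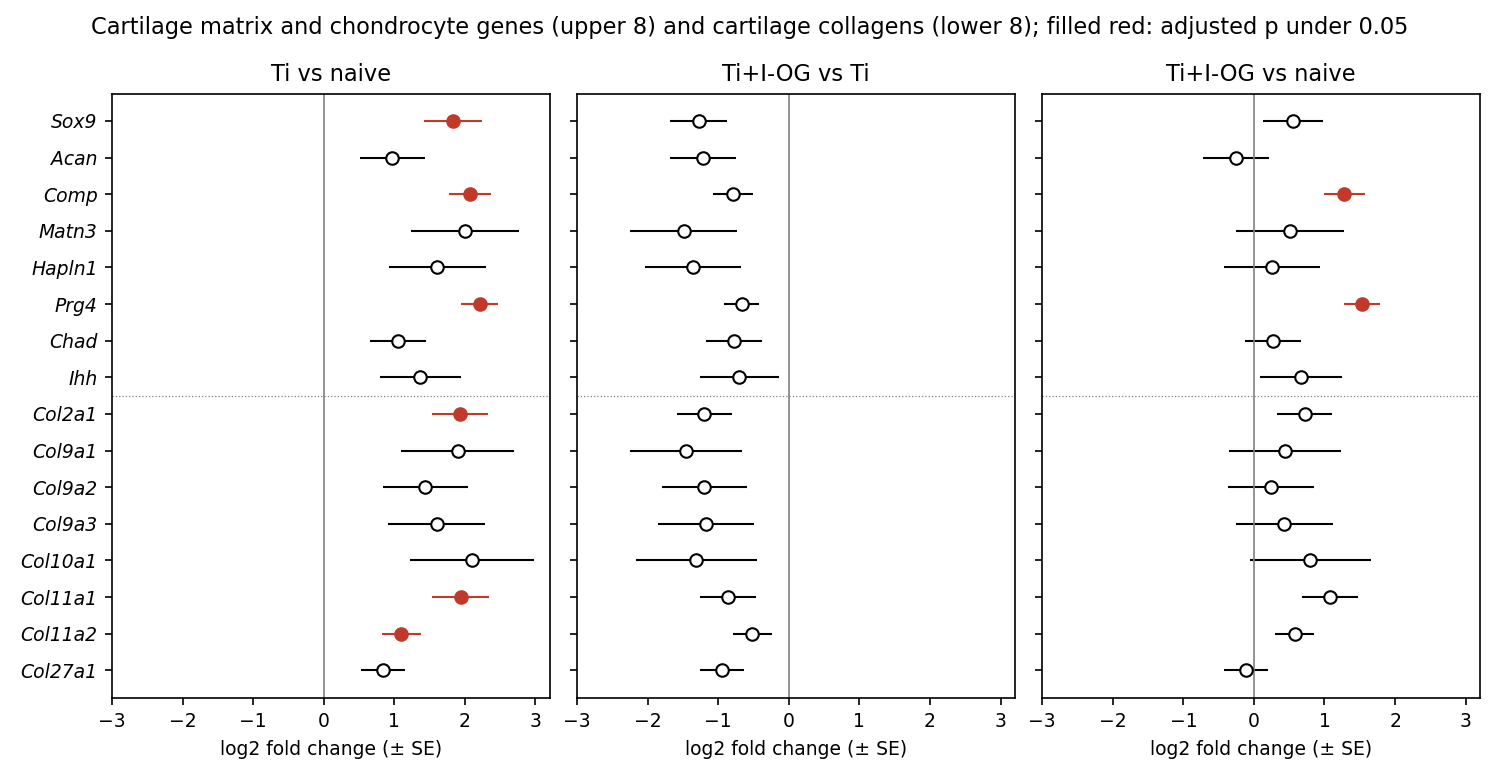
Log2 fold change of each of the 8 genes (upper) and of 8 cartilage collagens (lower) in Ti against naive, Ti+I-OG against Ti and Ti+I-OG against naive tibiae, with bars of 1 SE from the edgeR fit; filled red points passed an adjusted p of 0.05. For the 8 genes the values are all positive in the first comparison (0.97 to 2.21) and all negative in the second (−1.49 to −0.67), and Prg4 and Comp are filled in the third.

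An F test over the 3 groups passed for Prg4 (edgeR adjusted p = 0.00511), Comp (0.0113) and Sox9 (0.0424), where 5.77% of all genes tested passed. It did not pass for Matn3 (0.166), Acan (0.167), Chad (0.174), Hapln1 (0.197) or Ihh (0.241).

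The drop in Ti+I-OG replicate 3 was uneven among the 8 genes. Matn3 was 33.6 times and Hapln1 19.3 times below the mean of Ti+I-OG replicates 1 and 2, and Matn3 had only 6 counts there. Acan was 5.52 times lower, Ihh 3.40, Chad 2.99, Sox9 2.84 and Comp 2.17 times lower. Prg4 was at 85.2% of the other libraries' mean. Collagens of cartilage split in a like way. The collagen IX chains Col9a3, Col9a1 and Col9a2 were 23.2, 21.5 and 13.8 times lower, Col10a1, a collagen of hypertrophic chondrocytes, 9.43 times, and Col2a1 2.79 times, while Col11a1 was 1.303 times lower and Col11a2 was at 134%. Among the marker lists, 7 of 8 chondrocyte genes were at least 2-fold lower, with a median of 10.8 times, against medians of 1.51 for tendon, 1.16 for synovial, 1.25 for osteoblast and 1.34 for osteoclast genes. That chondrocyte list holds Col2a1, Col10a1, Col11a2 and the collagen IX chains just given, so it mostly repeats their values. Of all genes tested, 1.29% were at least 2-fold lower, with 0.5 CPM added to each value. Marrow adipocyte markers were higher in that library, with the other libraries at a median of 0.376 times its level. What part of the bone each library held is not given, and its part in these values was not tested.

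**Figure D3:**
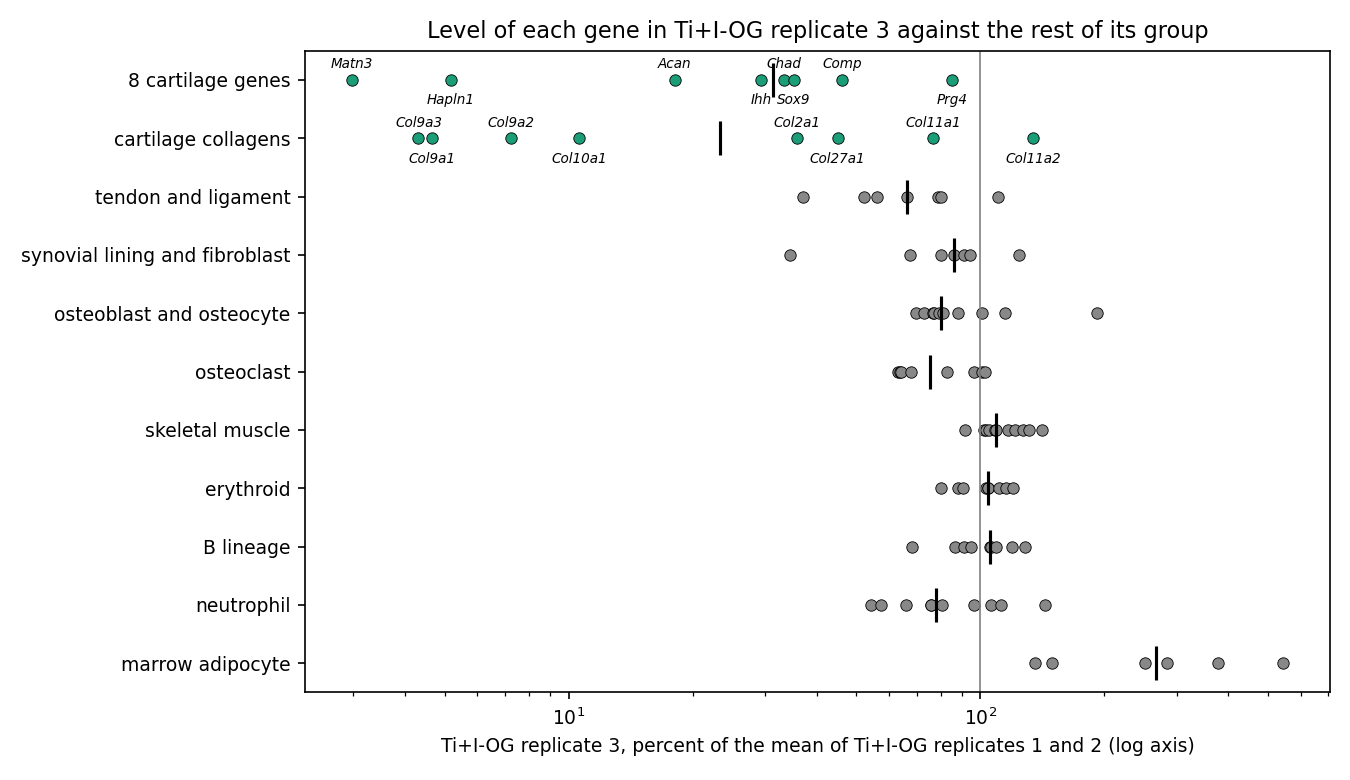
Level in Ti+I-OG replicate 3 as a percentage of the mean of Ti+I-OG replicates 1 and 2, on a logarithmic axis, for the 8 genes, the cartilage collagens and the markers of 9 other cell types. Each point is a gene and the upright tick is the median of its list. Prg4 sits at 85.2% and Col11a2 at 134%, while Matn3 at 2.98% and Hapln1 at 5.18% are close to the collagen IX chains.

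Ratios of FPKM values within a library showed the same uneven pattern. Lubricin over aggrecan was 48.6 in Ti+I-OG replicate 3, against 7.65 and 10.4 in the other Ti+I-OG libraries, 6.30 to 9.17 in Ti libraries and 2.04 to 6.38 in naive libraries. Comp over aggrecan was 3.76, 4.69 and 12.6 in Ti+I-OG libraries, 3.79, 4.22 and 3.59 in Ti libraries and 2.66, 2.62 and 1.47 in naive libraries. Each library of both particle groups was above each naive library in that ratio. Link protein over aggrecan, which are partners on hyaluronan, was 1.15, 0.866 and 0.324 in Ti+I-OG libraries, 1.38, 1.13 and 0.815 in Ti libraries and 1.62, 0.895 and 0.478 in naive libraries, so the groups overlapped.

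The cartilage collagens moved beside the 8 genes. Of 8 chains, 3 rose in Ti against naive tibiae and 5 did not pass, with a median log2 fold change of 1.75. All 8 had every Ti library above every naive library. Over all genes tested, 4.05% were called higher and 14.3% had their libraries apart in that way. Among those 5 chains, Col10a1 stood at 2.1 (edgeR adjusted p = 0.152) and Col9a1 at 1.9 (0.156). Leaving out 1 library moved Col10a1 between 1.63 and 3.96, with 1 of 9 fits passing, and Col9a1 between 1.47 and 3.14, with none passing. Col2a1 averaged 416 ± 47.3 CPM in Ti tibiae and 109 ± 55.9 CPM in naive tibiae, a log2 fold change of 1.93 ± 0.397 (edgeR adjusted p = 0.0222). Col11a1 rose by 1.94 and Col11a2 by 1.10 on the log2 scale (edgeR adjusted p = 0.0228 and 0.0400). The call was lost without Ti replicate 1 or 2 for Col2a1 and Col11a1, without naive replicate 3 for Col2a1, and for Col11a2 without Ti+I-OG replicate 1 or 2, any Ti library or naive replicate 3 (adjusted p up to 0.0786, 0.0934 and 0.122 for Col2a1, Col11a1 and Col11a2). A fit on the 2 groups alone ended the calls of Col11a1 and Col11a2, and limma-trend that of Col11a2. The median was −1.19 in Ti+I-OG against Ti, with Ti+I-OG replicate 3, low in collagen IX and Col10a1, included. Leaving out 1 library moved Col10a1 there between −2.13 and −0.80 and Col9a1 between −1.92 and −0.91. Col2a1 moved between −1.57 and −0.86 and Col11a1 between −1.01 and −0.75, and none of these fits passed. None of the 8 passed in Ti+I-OG against naive by edgeR, DESeq2 or limma, with 1 under 0.05 before adjustment and a median of 0.51. Of all genes tested, 29.8% were under 0.05 before adjustment there.

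Of 16 further genes of cartilage matrix or chondrocyte secretion, 15 were measured, 6 rose in Ti against naive tibiae and 9 did not pass (median 1.63). Over all genes tested, 4.05% were called higher there. Fmod, a small proteoglycan of collagen fibrils that is abundant in tendon, rose by 2.47 ± 0.295 and Cilp2 by 2.74 ± 0.401 on the log2 scale (edgeR adjusted p = 0.00213 and 0.00590), both in all 9 fits that left out 1 library. Frzb, a secreted Wnt antagonist, Cilp, Prelp and Fibin rose as well, by 3.16, 1.28, 0.86 and 1.54. These 4 calls were lost without Ti replicate 1 or 2 or naive replicate 3, and those of Frzb, Prelp and Fibin also without naive replicate 1 (adjusted p up to 0.0745, 0.0773, 0.0854 and 0.111 for Frzb, Cilp, Prelp and Fibin). Fmod and Cilp2 were the 2 that also rose in Ti+I-OG against naive tibiae (2.01 and 2.52), the call of Cilp2 being lost without Ti+I-OG replicate 2 (adjusted p = 0.0597). The median of the 15 in Ti+I-OG against Ti was −0.67.

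Regulators beyond Sox9 and Ihh mostly did not pass. Among all genes tested, 4.05% were called higher in Ti against naive and 26.9% had a p under 0.05 before adjustment. In Ti+I-OG against naive these shares were 3.84% and 29.8%. Of 15 other transcription factors and receptors of chondrocytes, 13 were measured and none passed by edgeR in Ti against naive, with 4 under 0.05 before adjustment; DESeq2 called Mef2c and Pth1r higher and limma-voom Pth1r, chosen here after their values were seen. None passed in Ti+I-OG against naive by any of these tools, with 1 under 0.05 before adjustment. Sox5 and Sox6, which act with SOX9, were among them, and their log2 fold changes in Ti against naive were 0.82 and −0.26. Of 20 other hedgehog and parathyroid hormone-related genes, 19 were measured, and Gas1, a hedgehog co-receptor, and Evc, a ciliary protein of hedgehog signalling, rose in Ti against naive tibiae by 1.42 and 0.97 (edgeR adjusted p = 0.0167 and 0.0343). Both calls were lost without Ti replicate 1 or 2 or naive replicate 3, and that of Evc also without Ti+I-OG replicate 1 or naive replicate 1 (adjusted p up to 0.0773 for Gas1 and 0.152 for Evc). The Evc call also ended with limma-trend and in a fit on the 2 groups alone, while DESeq2 called Boc, Cdon and Pth1r higher too. Both also passed in Ti+I-OG against naive (1.00 and 0.87, adjusted p = 0.0463 and 0.0462), calls lost without any Ti+I-OG library, Ti replicate 1 or naive replicate 1 or 3, and for Evc also Ti replicate 2 (adjusted p up to 0.183 and 0.165). Both ended with limma-voom, with limma-trend and in a fit on the 2 groups alone. Ptch1 and Gli1, targets of hedgehog signalling, did not pass, with log2 fold changes of 0.25 and 0.57 in Ti against naive.

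Genes for the synthesis of chondroitin sulphate and hyaluronan stayed near a median of 0. Of 22 measured, none passed by edgeR in Ti against naive tibiae, with a median of 0.02. Before adjustment 4 had a p under 0.05, as did 26.9% of all genes tested. DESeq2 called Chsy3 higher and Xylt1 lower. In Ti+I-OG against naive 3 fell, where 4.43% of all genes tested were called lower: Xylt1, which starts the chains, fell by 1.03, the sulphate transporter Slc26a2 fell by 0.69 and the sulphotransferase Chst11 fell by 0.46 on the log2 scale. The call was lost without Ti+I-OG replicate 1 or 2 for Xylt1, and for Slc26a2 and Chst11 without any Ti+I-OG library, Ti replicate 1 or naive replicate 1 or 3, for Chst11 also without Ti replicate 2 (adjusted p up to 0.0854, 0.1801 and 0.1799 in this order). Upper-quartile scaling, limma-voom and a fit on the 2 groups alone also ended the calls of Slc26a2 and Chst11. DESeq2 called 5 genes of this list lower and 2 higher, and limma-trend 7 lower and none higher.

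Of 13 aggrecanases, collagenases and their inhibitors, 6 rose in Ti against naive tibiae, where 4.05% of all genes tested were called higher. The other 7 did not pass, and the median of the 13 was 0.71. Those that rose were Htra1, a serine protease, at 1.90, Mmp3 at 3.37 and Mmp13, the main collagenase of cartilage in mouse, at 1.27. Mmp14 rose by 0.73, and the inhibitors Timp1 and Timp2 by 1.36 and 0.76. Htra1 passed in all 9 fits that left out 1 library, and the call of Mmp3 was lost without Ti replicate 1 (adjusted p = 0.0578). Those of Mmp13 and Mmp14 were lost without Ti replicate 1 or 2 or naive replicate 3, that of Timp2 without Ti replicate 2 or naive replicate 1 or 3, and that of Timp1 without Ti+I-OG replicate 1 or 2, Ti replicate 1 or 2 or naive replicate 1 or 3 (adjusted p up to 0.0911, 0.102, 0.0773 and 0.162 for Mmp13, Mmp14, Timp2 and Timp1). Mmp3 averaged 4.93 ± 1.55 CPM in Ti tibiae and 0.468 ± 0.123 CPM in naive tibiae. Adamts5, the main aggrecanase of mouse cartilage, did not pass, with a log2 fold change of −0.11 in Ti against naive. Htra1, Mmp3, Timp2 and Mmp14 rose in Ti+I-OG against naive, by 1.42, 3.46, 0.59 and 0.56. The calls of Htra1 and Mmp3 were lost without Ti+I-OG replicate 2 (adjusted p = 0.0602 and 0.0565), that of Timp2 without any Ti+I-OG library, Ti replicate 1 or naive replicate 1 or 3, and that of Mmp14 without any 1 of the 9 libraries (adjusted p up to 0.159 and 0.178). The Mmp14 call also ended with RLE scaling, with limma-voom, with limma-trend and in a fit on the 2 groups alone, and that of Timp2 with limma-trend, while DESeq2 called Timp1 and Mmp13 higher too. In Ti against naive a fit on the 2 groups alone ended the calls of Mmp14 and Timp1, and limma-trend that of Mmp14.

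Relatives of the 8 genes in their protein families followed with 5 calls in Ti against naive, where 4.05% of all genes were called higher. Of 15, 9 were measured, and the other link proteins Hapln2, Hapln3 and Hapln4 had at most 15 counts in any library. Thrombospondins 2, 3 and 4, of the family of Comp, rose in Ti against naive tibiae by 2.03, 1.42 and 2.94 on the log2 scale, and Matn2 and Matn4 by 1.37 and 2.19. Thrombospondin 1 (Thbs1), of the same family, did not pass the F test over the 3 groups (edgeR adjusted p = 0.938). Thbs4, a thrombospondin of tendon, averaged 42.3 ± 16.4 CPM in Ti tibiae and 5.51 ± 1.72 CPM in naive tibiae, a log2 fold change of 2.94 ± 0.311 (edgeR adjusted p = 0.00169). Thbs2 and Thbs4 passed in all 9 fits that left out 1 library, while Matn2, Thbs3 and Matn4 were lost without Ti replicate 1 or 2 or naive replicate 3, Thbs3 and Matn4 also without naive replicate 1, and Matn4 also without Ti+I-OG replicate 1 or naive replicate 2 (adjusted p up to 0.0749, 0.0959 and 0.190). The Matn4 call also ended with limma-voom, with limma-trend and in a fit on the 2 groups alone, and that of Thbs3 with limma-trend. Thbs4 and Thbs2 also rose in Ti+I-OG against naive, by 2.69 and 1.55, and versican (Vcan), the relative of aggrecan in softer matrices, fell by 1.58. The Vcan call was lost without any Ti+I-OG library, Ti replicate 1 or naive replicate 1 or 3 (adjusted p up to 0.149), and its value was −0.85 without naive replicate 3. Upper-quartile scaling, limma-voom, limma-trend and a fit on the 2 groups alone ended it too. Exons of Gas1, Matn2, Thbs3, Prelp, Col10a1, Col9a3, Gli1, Sox5 and Pth1r overlap those of genes on the other strand in the GENCODE annotation. So do exons of Htra4, Map2, Mfsd8 and Crispld1, which are named further on. For Htra4 the overlap covers 32.9% of its exons. The values of all these genes are uncertain to that extent.

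In Ti+I-OG against Ti no gene of these 7 lists passed by edgeR, DESeq2, limma-voom or limma-trend. Before adjustment p was under 0.05 for 2 of 8 collagens, 3 of 15 other matrix genes, 1 of 13 transcription factors and receptors, 0 of 19 hedgehog and parathyroid hormone-related genes, 4 of 22 genes of chain synthesis, 0 of 13 proteases and inhibitors and 3 of 9 relatives. Over all genes tested it was under 0.05 for 7.84%.

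**Figure D4:**
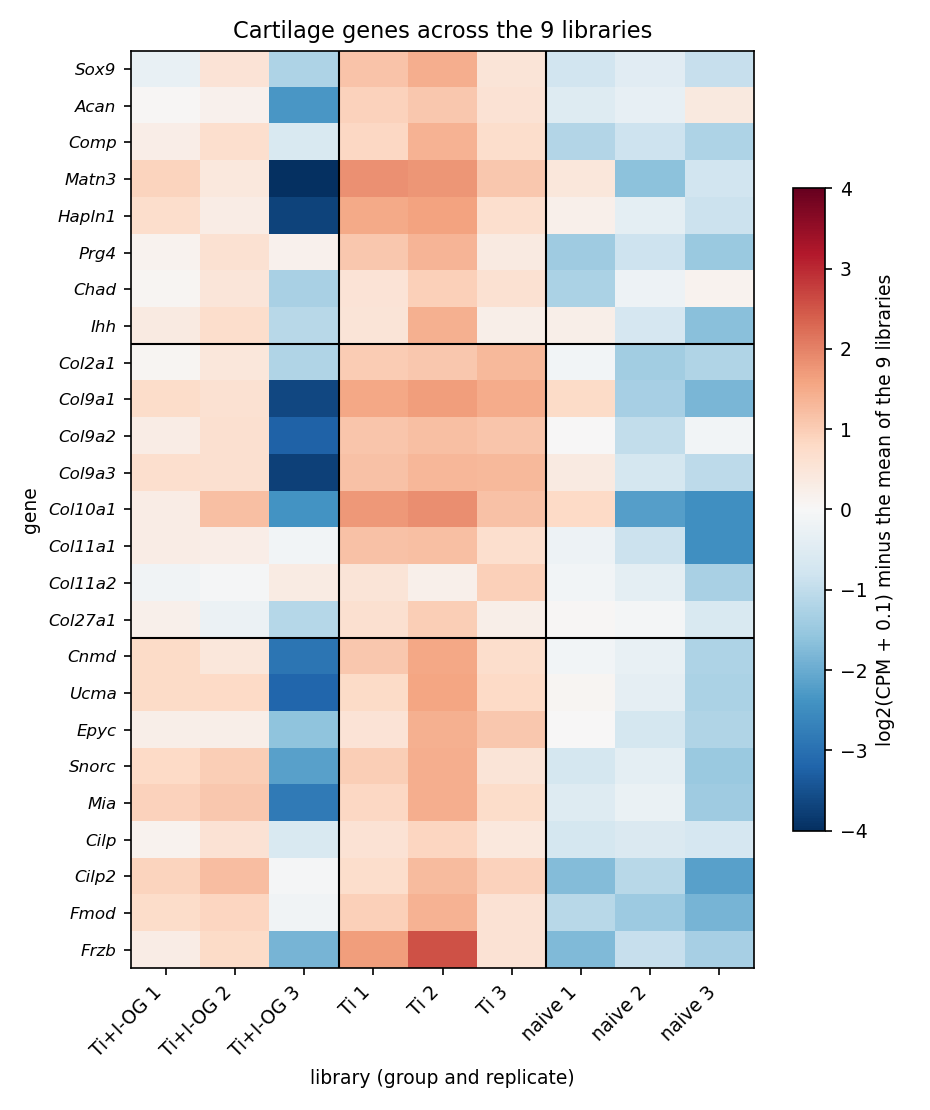
Level of the 8 genes (top), the cartilage collagens (middle) and 9 other chondrocyte or matrix genes (bottom) in each library, as log2(CPM + 0.1) minus the mean of the 9 libraries, with libraries in columns in the order Ti+I-OG, Ti and naive. The column of Ti+I-OG replicate 3 is the lowest for Matn3, Hapln1, Acan and the collagen IX chains, while its Prg4 and Col11a2 are near the mean.

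Markers of other cell types moved with the groups. For reference, 4.05% of all genes tested were called higher in Ti against naive, and 26.9% had a p under 0.05 before adjustment. In Ti+I-OG against naive 3.84% were called higher. Of 7 tendon and ligament markers 6 rose in Ti against naive tibiae and 5 in Ti+I-OG against naive, and their summed level was 88.6 to 145 CPM in Ti+I-OG, 111 to 208 CPM in Ti and 22.2 to 27.1 CPM in naive libraries, with none at 0 throughout. Fmod and Thbs4, named above, are on that list. Of 7 synovial markers 2, Htra4 and Pdpn, rose in Ti against naive, with summed levels of 99.4 to 106 CPM in Ti+I-OG, 98.8 to 141 CPM in Ti and 62.3 to 90.9 CPM in naive libraries. Osteoblast and osteocyte markers rose in 8 of 10 cases and osteoclast markers in 6 of 8 in Ti against naive, and with limma-trend in 6 and 5 cases. The 4 with the smallest p in each list were followed over the 9 fits that left out 1 library. Dmp1, Mepe, Ctsk, Acp5 and Ocstamp passed in all 9, Sost and Atp6v0d2 in 8 and Ibsp in 7. All 11 skeletal muscle markers had positive fold changes there (median 1.17), 9 with a p under 0.05 before adjustment and 1, Mylpf, called, in only 2 of the 9 fits that left out 1 library and neither with limma-trend nor in a fit on the 2 groups alone. Their sums were 3484 to 6087 CPM in Ti+I-OG, 2323 to 8195 CPM in Ti and 1015 to 2987 CPM in naive libraries. All 6 marrow adipocyte markers were positive too (median 1.62), 5 with a p under 0.05 before adjustment, none called by edgeR, limma-voom or limma-trend and 2 (Plin1 and Fabp4) by DESeq2, with sums of 342 to 678 CPM in Ti+I-OG, 290 to 668 CPM in Ti and 131 to 297 CPM in naive libraries. B lineage markers had a median of 0.73, with 6 of 9 under 0.05 before adjustment and none called by edgeR, DESeq2, limma-voom or limma-trend. Of 10 neutrophil markers (median −0.28) Ctsg and Prtn3 fell in Ti against naive, calls kept in 5 of the 9 fits that left out 1 library but not in a fit on the 2 groups alone, and Prtn3 overlaps exons of Plppr3 on the other strand. Erythroid markers summed to 169167 to 183642 CPM in Ti+I-OG, 69985 to 102975 CPM in Ti and 29798 to 96595 CPM in naive libraries. In Ti+I-OG against naive edgeR called 5 of 9 erythroid, 6 of 8 osteoclast, 3 of 10 osteoblast and osteocyte and 2 of 7 synovial markers higher. It also called Mylpf and 2 of 6 adipocyte markers, Fabp4 and Cidec, but no B lineage or neutrophil marker. Fabp4 and Cidec passed in 3 of the 9 fits that left out 1 library, and the globin genes in 3 or 4. With limma-trend 2 erythroid and no adipocyte markers were called. With the globin genes left out, the fold changes of the 8 genes moved by at most 0.02 and the calls were the same. In Ti+I-OG against Ti no marker of these cell types passed by edgeR, DESeq2, limma-voom or limma-trend. All 10 osteoblast and osteocyte markers were negative there (median −0.56), as were 50.4% of all genes tested. All 9 erythroid markers were positive (median 0.89). Before adjustment p was under 0.05 for 5 and 6 of them, and for 7.84% of all genes. Medians of the other lists ran from −0.47 for tendon to −0.03 for neutrophil markers. The part of tendon, synovium, bone, muscle, fat and blood cells in the values of Comp, Prg4 and the other genes was not tested.

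The genes most like the 8 in their pattern over the 9 libraries were found from Pearson's r of log2 CPM with the mean z score of the 8 genes. That mean was 0.19, 0.47 and −1.41 in Ti+I-OG, 0.89, 1.24 and 0.52 in Ti and −0.61, −0.56 and −0.72 in naive libraries, so all Ti libraries were above all others and Ti+I-OG replicate 3 was the lowest. Epha3 (r = 0.987), Scube1 (0.982), Chsy3 (0.977), Frzb (0.971) and Crispld1 (0.968) came first, over 9 libraries that share their groups. For single genes, the nearest was Map2 for Sox9 (0.981), Mfsd8 for Ihh (0.987), Col9a2 for Acan (0.947) and for Matn3 (0.973), and Cnmd for Hapln1 (0.982). Map2 ran from 0.283 to 2.23 CPM, its low end near the floor, and Mfsd8 only from 8.04 to 11.5 CPM. Cilp was nearest to Comp (0.986), Trpv4 to Chad (0.942) and Sema3c to Prg4 (0.989), followed by Mepe, an osteocyte gene (0.987).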

How the data were processed

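Per the labels' protocols, polyadenylated RNA of tibiae was made into libraries with the NEBNext Ultra kit and sequenced by Illumina. The tools named in the submitters' processing notes, with no roles, are RSEM, StringTie 1.3.1, fastp, edgeR and DESeq2; neither aligner nor genome build is named there. The authors deposited estimated counts per gene, which were rounded to whole numbers here, and FPKM values, fragments scaled to transcript length and library size. FPKM served only for levels and ratios between genes and for 1 alternative test.

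All 22183 genes entered 1 fit in edgeR 4.0.16 (R 4.3.3), with TMM normalisation, filterByExpr (minimum count 10, 14211 genes kept, 7972 left out) and a mean per group over the 9 libraries. The quasi-likelihood test was two-sided, and p-values were adjusted by Benjamini-Hochberg over all 14211 genes with a threshold of 0.05. CPM are scaled to the TMM library size. SE was taken from the log2 fold change over the root of its F value. Alternatives were RLE and upper-quartile scaling, no filter, no globin genes, DESeq2 1.42.0, limma 3.58.1 (voom on counts, trend on log2(FPKM + 1)), a replicate block, each comparison's 2 groups only, and each library left out; leaving out naive replicate 3 and Ti+I-OG replicate 3 together was added after seeing the data. The scripts were tested on simulated data.

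The 8 genes and all lists were chosen with earlier results of these data known. Named beside the 8 genes are preset genes of the lists, up to 4 further called genes a list and comparison by smallest p, and the genes most like them by Pearson's r. Fibin, Timp1, Matn4, Thbs1, Col9a2, Col9a3, Sp7, Col1a1, Mef2c and Pth1r's calls by other tools were named after their values were seen. Within each group, any pair of libraries differed by more than counting noise (13.4 to 138 for chi-square over its degrees of freedom), and all 9 were kept.

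Replicate numbers come from the sample titles, which do not say that they pair libraries. Deviations of same-numbered libraries from their group means correlated at 0.197, 0.115 and 0.273 for Ti+I-OG and naive, at −0.0238, 0.333 and 0.239 for Ti and naive, and at 0.0739, 0.203 and 0.220 for Ti+I-OG and Ti. The main fit paired no libraries in any comparison, and the replicate block, an alternative only, covered every comparison and the F test. Promoter sequences came from RefSeq on GRCm38.p6, and exon overlaps from GENCODE.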

Additional observations from a re-analysis of the deposited data

How the results depend on the processing

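Prg4 and Comp passed in Ti against naive in every setting tried, and no setting gave a call among the 8 genes in Ti+I-OG against Ti or a positive value there. In Ti against naive 3 of the 8 genes passed, and 6 did with the replicate block or without naive replicate 3 and Ti+I-OG replicate 3 together. In a fit on those 2 groups alone 4 passed. Leaving out 1 library gave 2 to 6 calls there and 0 to 2 in Ti+I-OG against naive, where 1 gene, Comp, passed without both libraries.

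The number of all genes called depended on the setting far more. In Ti against naive, 914 genes were called, 1859 with DESeq2, 537 with limma-trend on FPKM, 2968 with the replicate block, 357 with 2 groups only, 282 without both libraries, and 100 to 1999 without 1 library. For Ti+I-OG against Ti, 6 were called, 16 with DESeq2, 2 without both libraries and 0 to 6 without 1 library. For Ti+I-OG against naive, 1174 were called, 2439 with DESeq2, 3450 with the replicate block, 770 with 2 groups only, 122 without both libraries, and 59 to 2119 without 1 library. The F test called 820, 2466 with DESeq2, 3313 with the replicate block, 162 without both libraries, and 139 to 1729 without 1 library. With limma-trend on FPKM the median of all genes in Ti+I-OG against naive was −0.11, against 0.03 with edgeR, and 281 genes were called higher and 1471 lower.

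Values near 0 changed sign, none of them called. Set against naive, Ti+I-OG had Acan at 0.54 without both libraries, Matn3 at −0.37 with limma-voom, Hapln1 at −0.57 with limma-voom, −0.32 with limma-trend and −0.10 with the replicate block, Col9a1 at −0.05 with limma-voom, Ptch1 at 0.07 with upper-quartile scaling and 0.08 without both libraries, Sox5 at 0.00 with limma-trend, and Sox6 at 0.06 with upper-quartile scaling, 0.02 with limma-voom and 0.01 with the replicate block. In Ti against naive, leaving out 1 library gave ranges that crossed 0: −0.42 to 0.02 for Sox6, −0.27 to 0.08 for Adamts5. For Ti+I-OG against naive, leaving out 1 library gave ranges that crossed 0: −0.01 to 0.89 for Sox9, −0.62 to 0.20 for Acan, −0.17 to 1.28 for Matn3, −0.34 to 0.79 for Hapln1, −0.12 to 0.62 for Chad, −0.04 to 1.68 for Col9a1, −0.04 to 2.65 for Col10a1, −0.14 to 0.03 for Ptch1, −0.05 to 0.90 for Sox5, −0.19 to 0.25 for Sox6. The cause of these changes was not tested. Matn3, Sox9 and Ihh had as few as 6, 22 and 12 counts in a library, so counting error adds to their spread. Floors cover counting error only.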
